A study of Homo sapiens with 15 samples.

Results

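RNA levels of collagens, laminins and matricellular proteins were compared in HSC-5 squamous carcinoma cells whose PRMT5 or WDR77 gene had been targeted with guide RNAs. The 49 members were taken by symbol from families of structural extracellular matrix proteins. Of 60649 genes in the count files, 14077 had a mean of at least 3 reads over the 15 libraries, and 42 of the 49 members were among them.

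HSC-5 is an established cell line that came from a squamous carcinoma of human skin. Cas9-expressing cells had been transduced with lentiviral guides, with 3 biological replicates for each of 5 conditions. The control, sgNeg, carried an empty vector (genotype label WT), sgPRMT5-1 and sgPRMT5-2 were labelled PRMT5 knockout, and sgWDR77-1 and sgWDR77-2 were labelled WDR77 knockout. All 15 libraries shared the treatment label neomycin and the cell type label cancer cell line, so neither label could separate the conditions. The study describes the knockouts as complete by qRT-PCR, and with 1 cell line the results describe HSC-5 alone.

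PRMT5 is an arginine methyltransferase that methylates histones and splicing proteins, and WDR77 is its partner in the methylosome. Keratinocytes sit on a basement membrane of laminins, type IV collagens, nidogen and perlecan, to which hemidesmosomes and anchoring fibrils attach. Carcinoma cells also secrete matricellular proteins, which signal to cells more than they bear load.

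PRMT5 RNA was at 59.1, 49.6 and 67.8 CPM (reads of a gene per 1e6 gene reads, the library totals scaled with TMM factors) in the sgNeg replicates, 33.0, 35.8 and 41.4 with sgPRMT5-1 and 44.2, 44.5 and 39.4 with sgPRMT5-2. It was at 54.5, 64.2 and 54.4 with sgWDR77-1 and at 79.9, 65.2 and 64.4 with sgWDR77-2. Every library of a PRMT5 guide lay below every other library. PRMT5 fell with sgPRMT5-1 (log2 fold change -0.67, limma voom adjusted p = 0.0057) and with sgPRMT5-2 (-0.45, adjusted p = 0.011). WDR77 RNA was at 125, 114 and 119 CPM in sgNeg, 30.8, 52.0 and 53.3 with sgWDR77-1, and 26.6, 24.9 and 22.0 with sgWDR77-2. With sgPRMT5-1 it was at 134, 119 and 156, and with sgPRMT5-2 at 126, 130 and 119. WDR77 fell with sgWDR77-1 (-1.43, adjusted p = 2.0e-06) and sgWDR77-2 (-2.29, adjusted p = 6.8e-09). Guide RNAs cut DNA, and RNA levels do not measure how much protein was left. From Western blots, HSC-5 included, the study reported that targeting either gene lowered both the PRMT5 and the WDR77 protein.

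Reads assigned to genes ranged from 5146711 to 6730428 per library, which was 74.5 to 79.1% of the reads counted. Reads outside any annotated feature made up 2.75 to 7.16%, and sgNeg replicate 2 had the highest share. The sgWDR77-1 replicate 1 library stood apart from its group. Its distance from replicates 2 and 3, as chi-square per degree of freedom, was 12.6 and 17.8, beside 3.22 between replicates 2 and 3. The members held 0.476% of its gene reads, beside 0.570 and 0.631% in replicates 2 and 3. Results without sgWDR77-1 replicate 1 are given with the counts of called members, as are those without sgNeg replicate 2.

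Of 10 squamous keratinocyte markers, 9 were at a mean of at least 3 reads, and KRT17 was the most abundant. The basal keratin KRT14 did not reach it, at a mean of 2.53. Their summed level was 3290 to 4324 CPM per library. Of 12 fibroblast markers, 2 reached that mean, the sum was 6.93 to 11.5 CPM, and DPT and POSTN had no read. The fibroblast sum was 11.5, 11.2 and 10.3 CPM in sgNeg and lower in every guide library. Of the 2 tested fibroblast markers, 0 were called in each comparison with sgNeg. Of 6 endothelial markers, 2 reached a mean of 3 reads, at a sum of 12.7 to 36.1 CPM, with KDR and TEK at 0 reads. CDH5 made up most of that sum, which was highest in the sgWDR77-1 libraries (34.2, 31.3 and 36.1 CPM). Of 6 leukocyte markers, 1 reached it, at a sum of 0.360 to 1.86 CPM, with CD3E at 0 reads. The libraries thus carried more RNA of the squamous list than of the 3 stromal lists, and their label, cancer cell line, names no cell type to check further. RNA of a bulk sample cannot tell fewer cells of a type from less RNA in each cell.

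Member levels in sgNeg were compared between genes per length, in TPM (reads per length, scaled to the same total in each library; mean ± SD of n = 3). The matricellular CCN1 was highest at 1114 ± 139, followed by the transmembrane proteoglycan SDC4 at 702 ± 89.2, CCN2 at 450 ± 43.9 and SDC1 at 369 ± 37.0. Chains of the epithelial basement membrane came next, with LAMB3 at 290 ± 26.6, LAMC1 at 216 ± 11.8, AGRN at 176 ± 6.73 and COL17A1 at 165 ± 6.55. Fibrillar collagen was low: COL5A1 was at 8.85 ± 0.475, COL1A1 at 6.39 ± 0.848 and COL5A2 at 1.09 ± 0.434. The 7 members that did not reach the mean of 3 reads were COL1A2 (0 reads over all 15 libraries), COL3A1 (15), LAMA4 (42), NID2 (19), THBS2 (4), VCAN (40) and BGN (1). These 7 are made mainly by mesenchymal or endothelial cells, and LAMA4 lay just outside the filter at a mean of 2.80. COL8A1 lay just inside at 6.20.

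**Figure D1:**
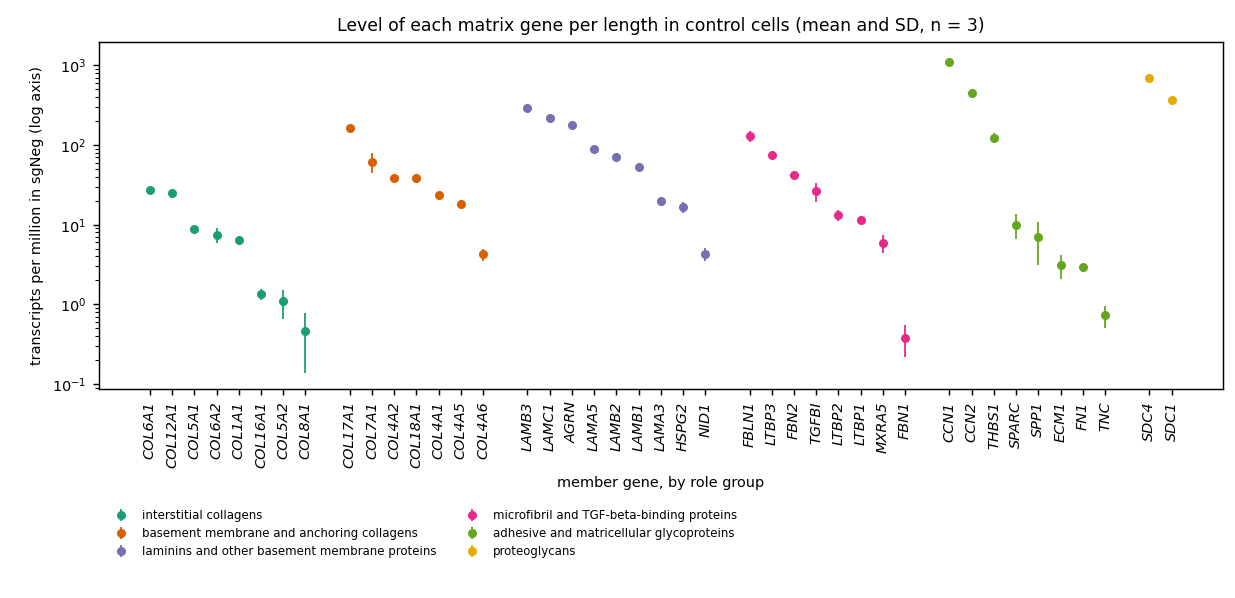
Level of each member in the sgNeg libraries in TPM on a log axis, mean and SD of 3 replicates, grouped by role. CCN1, SDC4 and CCN2 were the highest.

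With sgPRMT5-1, 13 of 42 members were called by limma voom at an adjusted p of 0.05 (2.87% of all genes), 4 higher (1.26% of genes) and 9 lower (1.61%). The members' median log2 fold change was -0.21, beside 0.02 over all genes. With sgPRMT5-2, 26 members were called (31.0% of all genes), 7 higher (16.3%) and 19 lower (14.7%), at a median of -0.43 beside 0.01. With sgWDR77-1, 9 were called (9.47%), 1 higher (3.57%) and 8 lower (5.90%), at a median of -0.14 beside -0.01. With sgWDR77-2, 18 were called (4.78%), 5 higher (1.81%) and 13 lower (2.97%), at a median of -0.25 beside 0.02. With all 15 libraries, lower calls outnumbered higher calls among members in each of the 4 comparisons. Without sgWDR77-1 replicate 1, the split with sgWDR77-1 was 5 higher and 6 lower at a median of -0.04, so its excess of lower calls was smaller. In that run LAMA5 and SPARC lost their lower calls, and LAMB2, LTBP3, CCN1 and AGRN gained higher calls. Over all genes sgPRMT5-2 had slightly more higher than lower calls. The 4 comparisons use the same 3 sgNeg libraries, so an unusual control library would enter all 4.

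Without sgNeg replicate 2, 25 members were called with sgPRMT5-2, 9 with sgWDR77-1 and 17 with sgWDR77-2. Over all genes that run called 3494 with sgPRMT5-2 and 1109 with sgWDR77-1, beside 4361 and 1333 with all 15 libraries. The number called with sgPRMT5-1 depended on single libraries. It was 7, 7 and 8 without sgNeg replicates 1, 2 and 3, 6 and 4 without sgPRMT5-1 replicates 2 and 3, and 22 without sgWDR77-1 replicate 1. Over all genes the same runs called 213, 243, 288, 167, 114 and 860, beside 404 with all 15 libraries. Of the 13 members called with sgPRMT5-1, 3 held in every alternative run: COL5A1, MXRA5 and SPARC. With sgPRMT5-2, leaving out any 1 library gave 24 to 28 calls, beside 3092 to 5283 over all genes. With sgWDR77-1 it gave 7 to 11. The 11 were 5 higher and 6 lower without its own replicate 1, and 1 higher and 10 lower without its replicate 3. Over all genes those runs called 1295 and 1447, and the runs with 7 members, without sgNeg replicates 1 and 3, called 904 and 679. Fitting the sgWDR77-1 and sgNeg libraries alone gave 5 members and 367 of all genes, beside 1333 genes in the main fit. With sgWDR77-2, leaving out 1 library gave 11 without sgWDR77-2 replicate 1 and up to 23 without sgWDR77-1 replicate 1. Over all genes those runs called 417 and 1348, beside 673 with all 15 libraries. Scaling by library totals gave 3 higher and 12 lower members with sgPRMT5-1, and upper-quartile scaling gave 2 higher and 7 lower with sgWDR77-1. Over all genes, the share of calls that were higher was 43.8% with sgPRMT5-1 and 27.1% under library totals. For sgPRMT5-2 it was 52.6%, beside 63.0% under upper-quartile scaling and 37.9% under library totals, and for sgWDR77-1 it was 37.7% beside 52.0% under upper-quartile scaling.

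**Figure D2:**
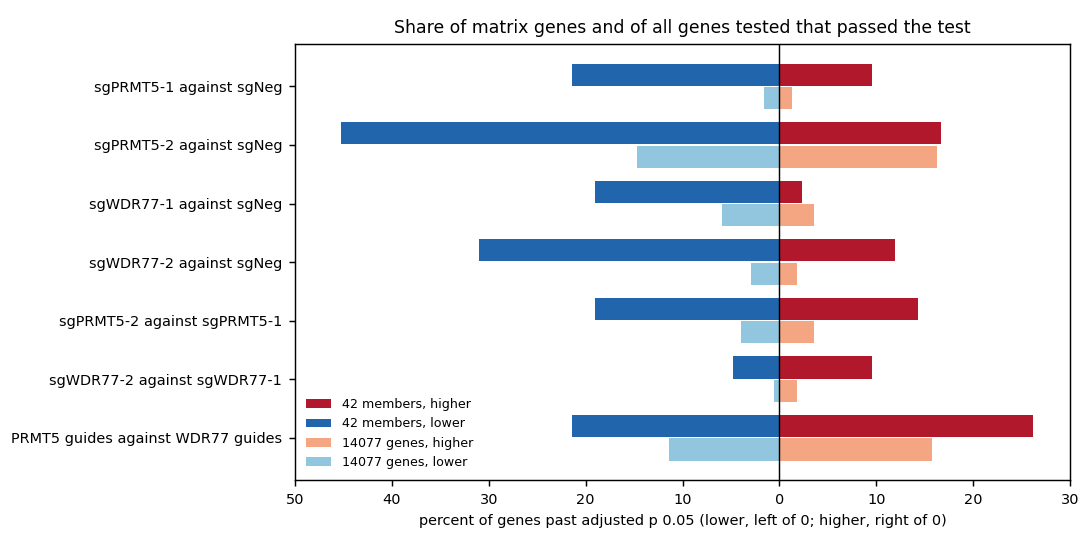
Percent of the 42 members and of all 14077 genes called in each of 7 comparisons, higher to the right and lower to the left. With sgPRMT5-2, 19 of 42 members were called lower beside 14.7% of genes.

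**Figure D3:**
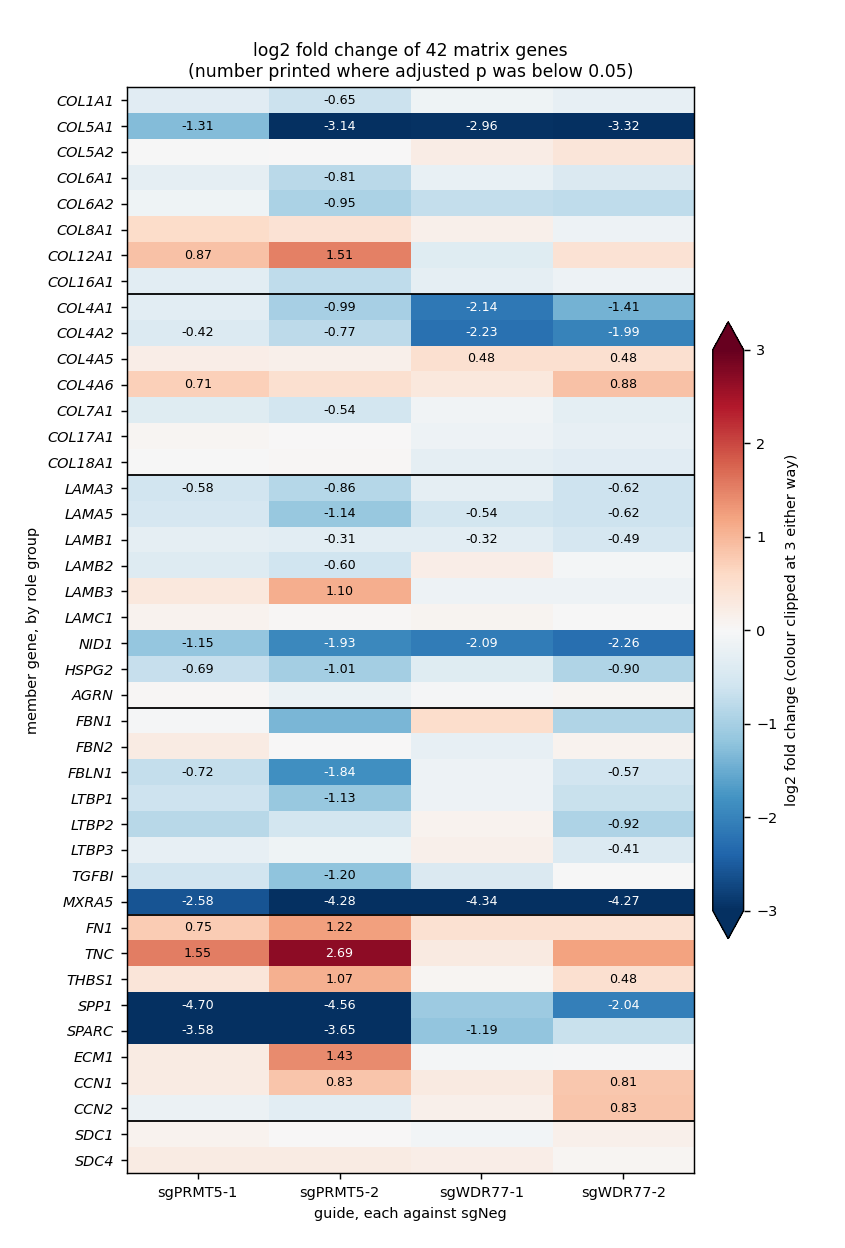
Log2 fold change of 42 members (lines, by role) in 4 comparisons with sgNeg (columns), with the value printed where adjusted p was below 0.05. SPP1 was at -4.70 with sgPRMT5-1 and -4.56 with sgPRMT5-2, and MXRA5 at -4.34 with sgWDR77-1.

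COL5A1, the chain that nucleates type I collagen fibrils, was the most affected interstitial collagen. It was at 21.8, 22.7 and 20.5 CPM in sgNeg, 12.4, 7.47 and 6.85 with sgPRMT5-1, and 2.18, 2.89 and 2.20 with sgPRMT5-2. With sgWDR77-1 it was at 2.03, 2.41 and 4.01, and with sgWDR77-2 at 0.963, 2.12 and 4.14. Every guide library lay below every sgNeg library, and the sgPRMT5-1 libraries lay between sgNeg and the other guides. Log2 fold changes (± SE) were -1.31 ± 0.22 with sgPRMT5-1 (adjusted p = 0.0012), -3.14 ± 0.33 with sgPRMT5-2 (5.3e-07), -2.96 ± 0.33 with sgWDR77-1 (5.4e-06) and -3.32 ± 0.37 with sgWDR77-2 (4.2e-06). COL5A1 was called in all 4 comparisons under every alternative.

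COL12A1, a collagen that decorates fibrils and links them to other matrix, moved the other way with the PRMT5 guides. It was at 89.9, 115 and 108 CPM in sgNeg, 175, 192 and 203 with sgPRMT5-1 and 323, 289 and 278 with sgPRMT5-2. With sgWDR77-1 it was at 116, 95.7 and 47.6, and with sgWDR77-2 at 207, 126 and 107. The PRMT5 guide libraries lay above all of sgNeg, and those of each WDR77 guide overlapped it. COL12A1 rose with sgPRMT5-2 by 1.51 (adjusted p = 2.1e-05). Its rise with sgPRMT5-1, 0.87 (adjusted p = 0.031), was lost in 10 of 15 runs without 1 library, with adjusted p up to 0.18.

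COL6A1, a chain of beaded microfilaments, was at 35.6, 34.0 and 31.0 CPM in sgNeg and 18.2, 19.5 and 19.8 with sgPRMT5-2, without overlap. With sgPRMT5-1 it was at 30.1, 29.9 and 24.1, with sgWDR77-1 at 24.8, 32.8 and 28.8 and with sgWDR77-2 at 22.0, 25.6 and 26.5, and of these 3 guides sgWDR77-1 overlapped sgNeg. It fell with sgPRMT5-2 (-0.81 ± 0.14, adjusted p = 1.6e-04), as did its partner chain COL6A2 (-0.95, 0.0060). The call of COL1A1 with sgPRMT5-2 (-0.65, adjusted p = 0.048) was lost in 11 alternatives. COL5A2, COL8A1 and COL16A1 passed in none of the 4 comparisons with sgNeg.

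COL4A1 and COL4A2 encode the chains of the ubiquitous type IV collagen trimer and are transcribed head to head from neighbouring start sites. COL4A2 was at 167, 165 and 161 CPM in sgNeg, 150, 115 and 107 with sgPRMT5-1, and 100, 94.3 and 93.1 with sgPRMT5-2. It was at 36.9, 37.0 and 31.2 with sgWDR77-1 and 38.5, 44.3 and 40.5 with sgWDR77-2. Each guide's libraries lay below sgNeg, those of the WDR77 guides lowest and without overlap with the PRMT5 guides. COL4A2 fell, with log2 fold changes of -0.42 ± 0.11 with sgPRMT5-1 (adjusted p = 0.031), -0.77 ± 0.11 with sgPRMT5-2 (1.6e-05), -2.23 ± 0.12 with sgWDR77-1 (5.6e-11) and -1.99 ± 0.12 with sgWDR77-2 (2.1e-10). The sgPRMT5-1 call was lost without sgNeg replicate 1 (0.071) or 2 (0.067), without sgPRMT5-1 replicate 2 (0.12) or 3 (0.16), with upper-quartile scaling (0.055) and with limma-trend (0.051), and its adjusted p was 0.0028 to 0.16 over 23 alternatives.

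COL4A1 was at 75.0, 83.0 and 68.2 CPM in sgNeg, 74.1, 56.7 and 51.9 with sgPRMT5-1, and 41.5, 37.4 and 34.9 with sgPRMT5-2. It was at 22.0, 17.4 and 12.8 with sgWDR77-1 and 27.3, 27.2 and 30.4 with sgWDR77-2. The sgPRMT5-1 libraries overlapped sgNeg, and those of the other 3 guides lay below it. COL4A1 fell with sgPRMT5-2 (-0.99 ± 0.14, adjusted p = 2.3e-05), sgWDR77-1 (-2.14 ± 0.17, 3.0e-08) and sgWDR77-2 (-1.41 ± 0.15, 3.1e-06), and did not pass with sgPRMT5-1 (-0.32, 0.22).

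The minor type IV chains COL4A5 and COL4A6 are another head to head pair and form a trimer of epithelial basement membranes. COL4A5 was at 43.3, 53.1 and 47.7 CPM in sgNeg, 55.5, 57.2 and 52.6 with sgPRMT5-1, and 57.2, 50 and 51.6 with sgPRMT5-2. It was at 59.1, 67.2 and 74.4 with sgWDR77-1 and 68.7, 67.7 and 63.9 with sgWDR77-2, above all of sgNeg. COL4A5 rose with sgWDR77-1 (0.48, adjusted p = 0.0085; lost without sgNeg replicate 1 and when only the compared groups were fitted) and sgWDR77-2 (0.48, 0.012; lost without sgNeg replicate 1 or 3 or sgWDR77-2 replicate 1 or 2). COL4A6 was at 9.48, 6.90 and 9.61 CPM in sgNeg and at 16.9, 16.3 and 14.4 with sgWDR77-2. It was at 15.9, 14.3 and 12 with sgPRMT5-1, 12.4, 12.4 and 10.8 with sgPRMT5-2 and 10.5, 10.6 and 10.8 with sgWDR77-1, and every guide library lay above sgNeg. COL4A6 rose with sgWDR77-2 by 0.88 (adjusted p = 0.0040), and its call with sgPRMT5-1 (0.71, 0.031) was lost in 10 alternatives.

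Promoter windows of 300 bases, credited to RefSeq on build GRCh38.p14, were available for 41 of the 49 members. None was available for COL1A1, COL1A2, COL3A1, COL5A2, COL6A1, COL8A1, AGRN and CCN1. The COL4A1 and COL4A2 start sites lie 127 bases apart and their windows share 226 bases, and those of COL4A5 and COL4A6 lie 380 bases apart and share 121. The windows of the 4 genes are given 5′ to 3′ on the strand of the gene, with the shared stretch in capitals.
COL4A1 (chr13:110307108-110307407, minus strand): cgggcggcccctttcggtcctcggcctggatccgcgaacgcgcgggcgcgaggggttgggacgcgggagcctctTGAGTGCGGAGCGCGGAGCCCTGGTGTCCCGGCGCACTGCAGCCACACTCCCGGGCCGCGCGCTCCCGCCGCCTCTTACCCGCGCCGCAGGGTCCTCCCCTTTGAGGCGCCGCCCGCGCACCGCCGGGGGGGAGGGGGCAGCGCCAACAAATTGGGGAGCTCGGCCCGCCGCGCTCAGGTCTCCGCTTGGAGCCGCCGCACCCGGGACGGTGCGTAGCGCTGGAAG
COL4A2 (chr13:110307034-110307333, plus strand): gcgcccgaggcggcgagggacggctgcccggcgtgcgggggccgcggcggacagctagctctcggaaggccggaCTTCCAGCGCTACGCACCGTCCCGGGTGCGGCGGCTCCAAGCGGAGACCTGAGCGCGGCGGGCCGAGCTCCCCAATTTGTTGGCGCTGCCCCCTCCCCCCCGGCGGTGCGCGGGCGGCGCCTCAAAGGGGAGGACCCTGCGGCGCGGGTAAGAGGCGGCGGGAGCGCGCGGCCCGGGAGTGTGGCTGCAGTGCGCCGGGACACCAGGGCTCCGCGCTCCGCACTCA
COL4A5 (chrX:108439588-108439887, plus strand): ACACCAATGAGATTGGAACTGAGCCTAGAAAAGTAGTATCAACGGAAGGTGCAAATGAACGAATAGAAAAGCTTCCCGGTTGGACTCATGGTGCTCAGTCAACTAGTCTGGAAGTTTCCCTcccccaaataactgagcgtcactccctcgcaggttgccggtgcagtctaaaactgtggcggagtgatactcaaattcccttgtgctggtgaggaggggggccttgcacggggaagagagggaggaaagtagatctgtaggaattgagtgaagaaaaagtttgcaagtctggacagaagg
COL4A6 (chrX:108439409-108439708, minus strand): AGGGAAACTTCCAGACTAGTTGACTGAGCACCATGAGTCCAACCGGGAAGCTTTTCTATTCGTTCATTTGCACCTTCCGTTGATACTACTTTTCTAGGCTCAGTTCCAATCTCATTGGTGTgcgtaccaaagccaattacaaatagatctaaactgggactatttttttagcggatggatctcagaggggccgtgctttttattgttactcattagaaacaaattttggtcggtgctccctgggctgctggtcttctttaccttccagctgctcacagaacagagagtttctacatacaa
CCAAT, searched on both strands, matched all 4 of these windows and 12 of the 41, beside 34.6% of all 35116 promoter windows. GC boxes (GGGCGG, both strands) matched 31 of the 41, beside 45% of all windows. A matching motif does not show that a factor was bound in these cells.

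COL17A1, the transmembrane collagen of hemidesmosomes, had 244, 250 and 264 CPM in sgNeg, 256, 255 and 274 with sgPRMT5-1, and 269, 241 and 252 with sgPRMT5-2. It had 233, 226 and 228 with sgWDR77-1 and 221, 211 and 206 with sgWDR77-2. The WDR77 guide libraries lay below sgNeg and the PRMT5 guide libraries overlapped it. COL17A1 passed in none of the 4 comparisons with sgNeg (0.05, 0.01, -0.14 and -0.25). With sgWDR77-2 it was called lower in 5 alternatives: under library totals (adjusted p = 0.030), with no filter on the mean (0.036), and without sgPRMT5-1 replicate 3 (0.033) or sgWDR77-1 replicate 1 (0.018) or 2 (0.047). COL7A1, which forms anchoring fibrils, was called lower with sgPRMT5-2 (-0.54, adjusted p = 0.023), a call that was lost without sgNeg replicate 2 or sgPRMT5-2 replicate 1 or 2 and with no filter on the mean. COL18A1 passed in none, but was called lower with sgWDR77-1 without its replicate 3 (-0.55, 0.030) and with sgWDR77-2 without sgWDR77-1 replicate 1 (-0.34, 0.027).

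NID1 bridges the laminin and type IV collagen networks. It was at 4.40, 6.08 and 5.99 CPM in sgNeg, 2.60, 3.06 and 1.71 with sgPRMT5-1, and 1.71, 0.850 and 1.69 with sgPRMT5-2. It was at 1.29, 1.48 and 0.912 with sgWDR77-1 and 1.35, 1.24 and 0.720 with sgWDR77-2, so every guide library lay below every sgNeg library. Log2 fold changes were -1.15 ± 0.30 (sgPRMT5-1, adjusted p = 0.037), -1.93 ± 0.36 (sgPRMT5-2, 3.3e-04), -2.09 ± 0.38 (sgWDR77-1, 0.0012) and -2.26 ± 0.40 (sgWDR77-2, 0.0012). The sgPRMT5-1 call was lost without sgNeg replicate 2 (0.12) or 3 (0.084) and without sgPRMT5-1 replicate 1 (0.078), 2 (0.076) or 3 (0.21). It was also lost with limma-trend (0.086), with a block for replicate number (0.075) and with no filter on the mean (0.052). Over 23 alternatives its adjusted p was 0.022 to 0.21.

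LAMB3, a chain of the laminin that anchors hemidesmosomes, was at 325, 269 and 292 CPM in sgNeg and 617, 631 and 643 with sgPRMT5-2. It was at 356, 365 and 386 with sgPRMT5-1, 208, 265 and 343 with sgWDR77-1, and 272, 253 and 265 with sgWDR77-2. The sgPRMT5-2 libraries were the highest, the sgPRMT5-1 libraries lay above all of sgNeg, and the WDR77 guides overlapped sgNeg. LAMB3 rose with sgPRMT5-2 (1.10 ± 0.12, adjusted p = 6.0e-07) and did not pass with sgPRMT5-1 (0.32, 0.15). It was called higher with sgPRMT5-1 without sgWDR77-1 replicate 1 (0.028) and when only the compared groups were fitted (0.047). Without sgWDR77-1 replicate 3, LAMB3 was called lower with sgWDR77-1 (-0.33, 0.046). Its partner chain LAMA3 fell with sgPRMT5-1 (-0.58, adjusted p = 0.015), sgPRMT5-2 (-0.86, 5.0e-05) and sgWDR77-2 (-0.62, 0.0064). The LAMA3 call with sgPRMT5-1 was lost without sgNeg replicate 1 or sgPRMT5-1 replicate 3.

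Of the other laminins, LAMB1 fell with sgPRMT5-2 (-0.31, adjusted p = 0.0067) and sgWDR77-2 (-0.49, 9.5e-04). Its call with sgWDR77-1 (-0.32, 0.018) was lost under upper-quartile scaling and when only the compared groups were fitted. LAMA5, the main alpha chain of adult epithelium, fell with sgPRMT5-2 (-1.14, adjusted p = 1.9e-05), as did LAMB2 (-0.60, 0.0036). LAMA5 was also called lower with sgWDR77-1 (-0.54, 0.033; lost without sgNeg replicate 2 or 3, sgPRMT5-2 replicate 1 or sgWDR77-1 replicate 1, under library totals, with no filter on the mean and when only the compared groups were fitted) and sgWDR77-2 (-0.62, 0.024; lost without sgNeg replicate 2 or 3 or any sgWDR77-2 replicate). HSPG2, or perlecan, fell with sgPRMT5-2 (-1.01, 2.3e-04) and sgWDR77-2 (-0.90, 0.0040). With sgPRMT5-1 HSPG2 was called lower (-0.69, 0.033), which was lost without sgNeg replicate 2 or 3 or sgPRMT5-1 replicate 2 or 3 and with no filter on the mean. LAMC1 and AGRN, both abundant, passed in none of the 4 comparisons. Without sgWDR77-1 replicate 1, AGRN was called lower with sgPRMT5-2 (-0.21, 0.018) and higher with sgWDR77-1 (0.27, 0.026).

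MXRA5, a secreted leucine-rich matrix protein, had the largest falls of the 42 members in the comparisons of the WDR77 guides. It was at 10.7, 16.4 and 11.2 CPM in sgNeg, 2.14, 2.55 and 1.54 with sgPRMT5-1, and 0.622, 0.850 and 0.338 with sgPRMT5-2. It was at 1.29, 0.555 and 0.182 with sgWDR77-1 and 0.963, 0.353 and 0.540 with sgWDR77-2. Every guide library lay far below every sgNeg library. The fold changes rest on 225 reads in sgNeg and on 38, 11, 11 and 10 reads in the guide groups. They were -2.58 ± 0.33 (sgPRMT5-1, adjusted p = 8.2e-05), -4.28 ± 0.50 (sgPRMT5-2, 2.1e-06), -4.34 ± 0.53 (sgWDR77-1, 1.8e-05) and -4.27 ± 0.52 (sgWDR77-2, 1.4e-05), and all 4 held under every alternative.

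FBLN1, an elastic fibre and basement membrane glycoprotein, was at 246, 187 and 187 CPM in sgNeg, 149, 132 and 96.7 with sgPRMT5-1, and 55.8, 58.8 and 57.0 with sgPRMT5-2. It was at 168, 168 and 224 with sgWDR77-1, which overlapped sgNeg, and at 109, 159 and 153 with sgWDR77-2, which did not. FBLN1 fell with sgPRMT5-2 (-1.84 ± 0.17, adjusted p = 5.3e-08) and sgPRMT5-1 (-0.72 ± 0.15, 0.011). The sgPRMT5-1 call was lost without sgNeg replicate 1 (0.070) or sgPRMT5-1 replicate 3 (0.092). With sgWDR77-2 it was called lower (-0.57 ± 0.15, 0.035). That call was lost without sgNeg replicate 1 (0.15) or sgWDR77-2 replicate 1 (0.18). It was also lost with a block for replicate number (0.056) and with no filter on the mean (0.068).

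TGFBI, a TGF-beta-induced adhesion protein, and LTBP1, which tethers latent TGF-beta, fell with sgPRMT5-2 (-1.20, adjusted p = 2.7e-05, and -1.13, 2.6e-04). LTBP2 was called lower with sgWDR77-2 (-0.92, adjusted p = 0.026; lost without sgNeg replicate 1 or 3 or sgWDR77-2 replicate 1 and with no filter on the mean), as was LTBP3 (-0.41, 0.045), whose call was lost in 12 alternatives. The microfibril proteins FBN1 and FBN2 passed in none of the 4 comparisons with sgNeg, though FBN1 was called lower with sgPRMT5-2 without sgNeg replicate 1 (-1.75, 0.037).

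SPP1, or osteopontin, and SPARC bind cells and collagen and are secreted by many carcinomas. SPARC was at 12.2, 6.08 and 12.5 CPM in sgNeg, 1.07, 0.679 and 0.514 with sgPRMT5-1, and 0.777, 0.340 and 1.18 with sgPRMT5-2. It was at 2.96, 3.89 and 6.39 with sgWDR77-1 and 5.01, 6.54 and 6.84 with sgWDR77-2. The PRMT5 guide libraries lay far below all others, and the WDR77 guides overlapped sgNeg. SPARC fell with sgPRMT5-1 (-3.58 ± 0.54, adjusted p = 5.6e-04) and sgPRMT5-2 (-3.65 ± 0.55, 4.1e-05). With sgWDR77-1 it was called lower (-1.19 ± 0.32, 0.020), which was lost without sgNeg replicate 1 (0.068) or 3 (0.077) or sgWDR77-1 replicate 1 (0.080) or 2 (0.055) and when only the compared groups were fitted (0.12). Its adjusted p was 0.0017 to 0.12 over 23 alternatives. It did not pass with sgWDR77-2 (-0.66, 0.20), but did without sgNeg replicate 2 (-1.02, 0.025).

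SPP1 was at 17.8, 6.25 and 9.07 CPM in sgNeg, 0.764, 0.170 and 0.171 with sgPRMT5-1, and 0.622, 0.340 and 0.169 with sgPRMT5-2. It was at 5.17, 2.04 and 9.31 with sgWDR77-1 and 0.770, 2.65 and 5.76 with sgWDR77-2. Its replicates varied widely, and of the guides sgWDR77-1 alone overlapped sgNeg. The group totals were 193, 7, 7, 90 and 51 reads in the same order. SPP1 fell with sgPRMT5-1 (-4.70 ± 1.02, 95% interval -6.82 to -2.59, adjusted p = 0.012) and sgPRMT5-2 (-4.56 ± 0.99, -6.61 to -2.52, 0.0014). The sgPRMT5-1 call was lost without sgPRMT5-1 replicate 2 (0.073) or 3 (0.088). With sgWDR77-2 it was called lower (-2.04 ± 0.56, 0.037), which was lost without sgNeg replicate 1 (0.11) or 3 (0.052) or sgWDR77-2 replicate 1 (0.18) or 2 (0.11) and with no filter on the mean (0.080). It did not pass with sgWDR77-1 (-1.09, 0.13).

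TNC, FN1 and THBS1 are adhesion-modulating glycoproteins of wounds and tumour stroma. TNC was at 1.86, 0.986 and 1.81 CPM in sgNeg, 3.82, 6.45 and 3.77 with sgPRMT5-1, and 9.64, 9.52 and 11.2 with sgPRMT5-2. It was at 2.40, 1.30 and 1.82 with sgWDR77-1 and 5.58, 2.83 and 2.88 with sgWDR77-2. The sgPRMT5-2 libraries were highest, and of the guides sgWDR77-1 alone overlapped sgNeg. TNC rose with sgPRMT5-2 (2.69 ± 0.37, adjusted p = 1.2e-05). Its call with sgPRMT5-1 (1.55 ± 0.39, 0.032) was lost without sgNeg replicate 1, 2 or 3 (0.094, 0.18 and 0.083), sgPRMT5-1 replicate 2 or 3 (0.14 and 0.076) or sgPRMT5-2 replicate 1 or 2 (0.051 and 0.053).

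FN1 was at 11.3, 10.2 and 12.3 CPM in sgNeg, 19.3, 18.0 and 19.7 with sgPRMT5-1 and 28.9, 26.5 and 23.5 with sgPRMT5-2. It was at 15, 13.7 and 17.5 with sgWDR77-1 and 16.6, 14.7 and 15.5 with sgWDR77-2, and every guide library lay above sgNeg. FN1 rose with sgPRMT5-2 (1.22, adjusted p = 3.2e-06) and with sgPRMT5-1 (0.75, 0.0081), the latter lost without sgNeg replicate 2 or sgPRMT5-1 replicate 3. THBS1 rose with sgPRMT5-2 (1.07, adjusted p = 1.3e-07) and sgWDR77-2 (0.48, 0.0075; lost without sgNeg replicate 1 or sgWDR77-2 replicate 1). ECM1, a secreted skin glycoprotein, rose with sgPRMT5-2 (1.43, adjusted p = 7.4e-04).

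CCN1 and CCN2 are immediate-early matricellular proteins. CCN1 was at 803, 882 and 1026 CPM in sgNeg, 1569, 1575 and 1645 with sgPRMT5-2 and 1521, 1669 and 1526 with sgWDR77-2. It was at 1107, 1088 and 1020 with sgPRMT5-1 and 1044, 991 and 1226 with sgWDR77-1. The sgPRMT5-2 and sgWDR77-2 libraries lay above all of the others, and those of sgPRMT5-1 and sgWDR77-1 overlapped sgNeg. CCN1 rose with sgPRMT5-2 (0.83 ± 0.09, adjusted p = 9.4e-07) and sgWDR77-2 (0.81 ± 0.09, 6.5e-06).

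CCN2 was at 207, 233 and 252 CPM in sgNeg, 248, 207 and 161 with sgPRMT5-1, 178, 177 and 204 with sgPRMT5-2, 211, 237 and 326 with sgWDR77-1, and 325, 481 and 432 with sgWDR77-2. The sgWDR77-2 libraries lay above all of sgNeg and those of sgPRMT5-2 below it. CCN2 rose with sgWDR77-2 (0.83 ± 0.16, adjusted p = 0.0025) and did not pass with the other 3 guides (-0.18, -0.31 and 0.14), though fitting the sgPRMT5-2 and sgNeg libraries alone called it lower (-0.31, 0.0039). Its promoter window is given in capitals where the TEAD motif GGAATG matched on either strand, at 3 places.
CCN2 (chr6:131951323-131951622, minus strand): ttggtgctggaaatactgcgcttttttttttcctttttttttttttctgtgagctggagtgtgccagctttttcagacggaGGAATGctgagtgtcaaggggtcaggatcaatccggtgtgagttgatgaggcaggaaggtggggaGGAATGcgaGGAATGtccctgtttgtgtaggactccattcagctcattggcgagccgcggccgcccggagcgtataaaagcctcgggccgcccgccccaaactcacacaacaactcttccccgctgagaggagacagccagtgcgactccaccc
That motif matched 6 of the 41 windows (COL12A1, FBN1, THBS1, THBS2, SPARC and CCN2), beside 14% of all windows. The AP-1 motif TGANTCA matched 2 of them (LAMA3 and ECM1), beside 7.71%.

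SDC1 and SDC4, transmembrane heparan sulfate proteoglycans, were the tested members of their role. SDC4 was at 462, 372 and 373 CPM in sgNeg, 489, 538 and 398 with sgPRMT5-1, 485, 458 and 486 with sgPRMT5-2, 421, 456 and 496 with sgWDR77-1, and 334, 435 and 494 with sgWDR77-2. The libraries of each guide overlapped sgNeg. Of these 2 members, limma voom called 0 in each comparison with sgNeg, and 0 had an unadjusted p under 0.05. SDC4 was called higher with sgPRMT5-2 under upper-quartile scaling (0.32, adjusted p = 0.049) and when only those 2 groups were fitted (0.24, 0.015).

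Some members gained calls when a library was left out. Without sgWDR77-1 replicate 1, the test with sgPRMT5-1 added LAMA5 (-0.52), LAMB1 (-0.30), LAMB2 (-0.41), LTBP1 (-0.63), LTBP2 (-0.84), LTBP3 (-0.25) and TGFBI (-0.60) as lower and LAMB3 (0.30) and THBS1 (0.34) as higher. In that run the test with sgPRMT5-2 added LTBP2 (-0.57) and AGRN. The test with sgWDR77-1 added LAMB2 (0.43, adjusted p = 0.016), LTBP3 (0.34, 0.010), CCN1 (0.30, 0.036) and AGRN, all higher. The test with sgWDR77-2 added COL6A1 (-0.45), COL6A2 (-0.76), LTBP1 (-0.67), COL17A1 and COL18A1, all lower. Without sgNeg replicate 2, TGFBI was called lower with sgPRMT5-1 (-0.75, 0.021) and sgWDR77-1 (-0.60, 0.031).

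Several members that did not pass with all 15 libraries were called in more than 2 alternatives. TGFBI with sgPRMT5-1 and LTBP1 with sgWDR77-2 were called lower in 9 of 23 each, and LAMB1 and LTBP2 with sgPRMT5-1 in 7 each. LTBP2 with sgPRMT5-2 was called lower in 6, and COL4A6 with sgPRMT5-2 higher in 4. With sgWDR77-2, COL6A1 was called lower in 4 and COL6A2 in 3.

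**Figure D4:**
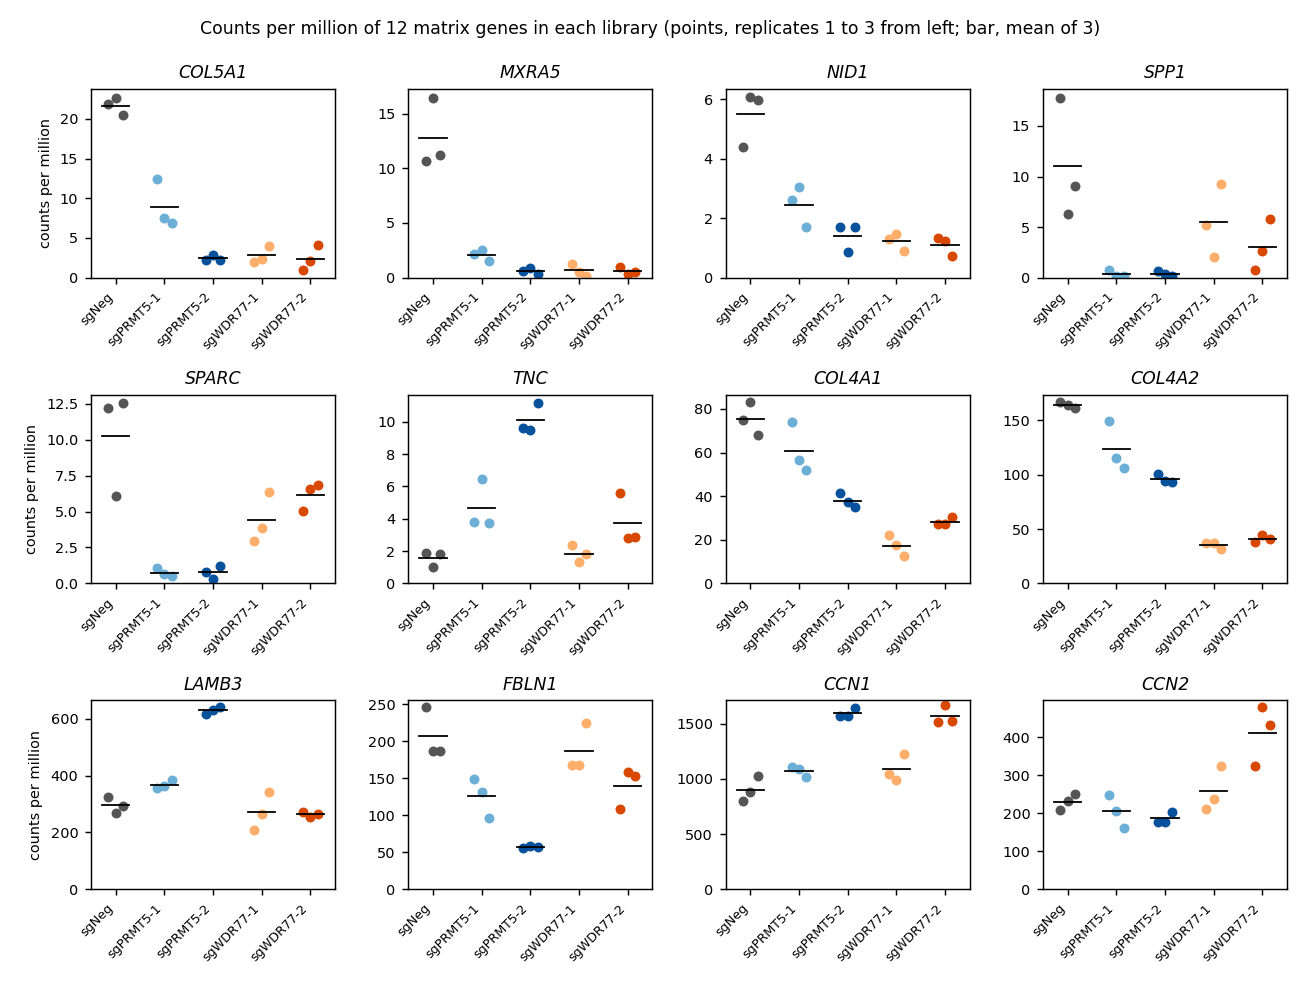
CPM of 12 members in each of the 15 libraries by condition, with a bar at the group mean. COL5A1, NID1 and MXRA5 were below sgNeg with every guide, and SPARC and SPP1 were lowest with the PRMT5 guides.

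The 2 PRMT5 guides were compared with the 2 WDR77 guides directly, without the control. The spread in this test came from replicate libraries, so differences between guides of the same target did not enter its p-values. Of the members named here, COL4A1, COL4A2, COL5A1, LAMB3, TNC and FBLN1 were also called between the PRMT5 guides. COL4A1 and CCN2 were called between the WDR77 guides. Of 42 members, 20 differed (27.1% of all genes), 11 higher (15.7%) and 9 lower (11.4%) with the PRMT5 guides, at a median of 0.00 beside 0.02. Over all genes 57.8% of calls were higher, and 41.1% under library totals. The difference was 1.51 ± 0.09 for COL4A2 (adjusted p = 7.2e-11), 1.12 ± 0.12 for COL4A1 (6.6e-07), 0.86 ± 0.08 for LAMB3 (2.1e-07), 1.39 ± 0.23 for TNC (1.8e-04) and 1.15 for COL12A1 (1.5e-05). It was -2.70 ± 0.41 for SPARC (5.6e-05), -3.07 ± 0.75 for SPP1 (0.0046), -0.92 ± 0.11 for FBLN1 (5.4e-06) and -0.73 ± 0.11 for CCN2 (7.0e-05). So COL4A1 and COL4A2 were lower with the WDR77 guides, while COL4A5 was higher with them (-0.31, 0.0053), and SPARC and SPP1 were lower with the PRMT5 guides. COL5A1 differed by 0.92 ± 0.29 (0.023), a call lost without sgPRMT5-1 replicate 1 (0.051), sgPRMT5-2 replicate 2 (0.065) or sgWDR77-2 replicate 1 (0.069) or 2 (0.051). Of the 20 calls, 16 held under every alternative, and leaving out 1 library gave 17 to 26, with 26 (11 higher and 15 lower) without sgWDR77-1 replicate 1.

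**Figure D5:**
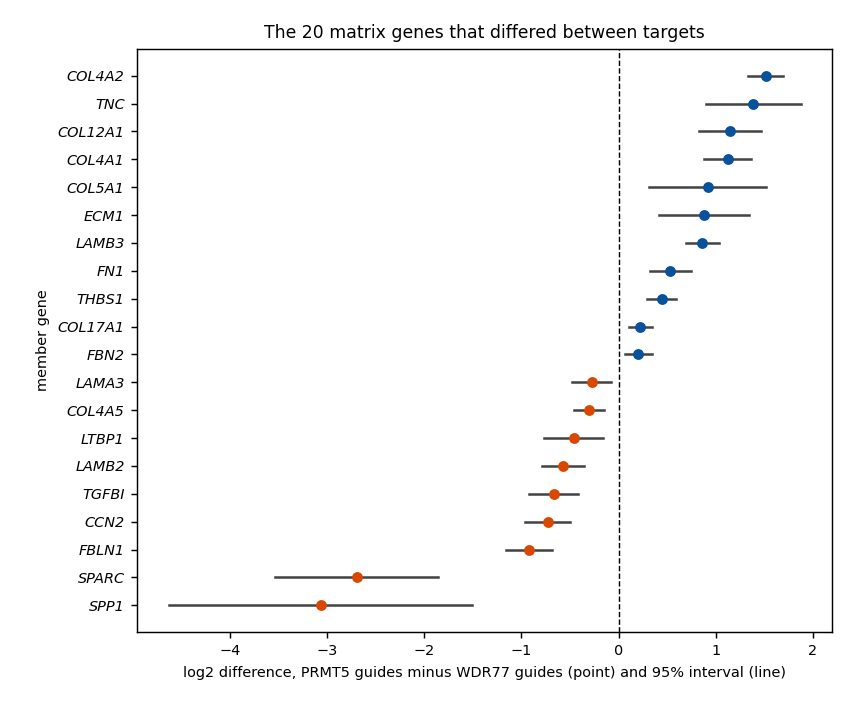
Difference in log2 level between the PRMT5 guides and the WDR77 guides for the 20 members called, with 95% intervals not adjusted for the number of genes. The intervals rest on spread among replicate libraries, not between guides of the same target. COL4A2 was higher by 1.51 and SPP1 lower, at -3.07.

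Guides of the same target also differed. Of 42 members, 14 differed between sgPRMT5-2 and sgPRMT5-1 (7.52% of all genes), 6 higher (3.55%) and 8 lower (3.97%) with sgPRMT5-2, at a median of -0.15 beside -0.01. The number of members was 5, 8 and 15 without sgPRMT5-1 replicates 1, 2 and 3. It was 8, 8 and 9 without sgPRMT5-2 replicates 1, 2 and 3, and 17 without sgWDR77-1 replicate 1. Over all genes those runs called 336, 452, 1649, 449, 465, 477 and 1982 in the same order, beside 1059 with all 15 libraries. Without sgPRMT5-1 replicate 3, the split of members was 6 higher and 9 lower. In the other 5 runs without a PRMT5 guide library, higher calls outnumbered lower calls (3 and 2, 5 and 3, 5 and 3, 5 and 3, and 6 and 3). With all 15 libraries, 47.2% of the calls over all genes were higher, beside 59.2% under upper-quartile scaling. COL5A1 (-1.82 ± 0.35, adjusted p = 0.0025), LAMB3 (0.77, 2.1e-04), FBLN1 (-1.12, 2.2e-04), CCN1 (0.57, 3.7e-04) and THBS1 held under every alternative. For each of these 5 the value with sgPRMT5-2 lay further from sgNeg than that with sgPRMT5-1.

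Between sgWDR77-2 and sgWDR77-1, 6 members differed (2.40% of all genes), 4 higher (1.84%) and 2 lower (0.561%), at a median of -0.04 beside 0.01. Under upper-quartile scaling and under library totals, 2 of 4 calls were higher. Over all genes 76.6% of calls were higher, beside 60.1% under library totals. The number of members was 3 without sgPRMT5-2 replicate 2, 10 and 3 without sgWDR77-1 replicates 1 and 2, and 2 and 1 without sgWDR77-2 replicates 1 and 2. Over all genes those runs called 153, 506, 306, 45 and 85, beside 338 with all 15 libraries. Of the 10 without sgWDR77-1 replicate 1, 4 were higher and 6 lower. When only the 2 groups compared were fitted, limma voom called 0 members, with 16 at an unadjusted p under 0.05, and 15 of all genes. CCN1 (0.54, adjusted p = 0.0048) and CCN2 (0.68, 0.024) were among the 6, and none of the 6 calls held under every alternative.

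Matrix genes outside the 49 were counted in the same tests, in which 2.87% (sgPRMT5-1), 31.0% (sgPRMT5-2), 9.47% (sgWDR77-1) and 4.78% (sgWDR77-2) of all genes were called. Of 37 tested chains and glycoproteins of the matrix, sgPRMT5-2 gave 3 higher and 12 lower (40.5% called) at a median of -0.54, beside 0.01 over all genes (16.3% higher and 14.7% lower), and the other guides gave 2 and 3 (sgPRMT5-1), 1 and 4 (sgWDR77-1) and 3 called, all of them lower, with sgWDR77-2 (8 at an unadjusted p under 0.05). IGFBP3 fell with sgPRMT5-1 (-1.46, adjusted p = 1.3e-04) and sgPRMT5-2 (-1.59, 4.3e-06). Of 20 tested matrix receptors and hemidesmosome genes, 1 was higher and 1 lower with sgPRMT5-1, 7 and 4 with sgPRMT5-2, 5 and 1 with sgWDR77-1, and 1 and 1 with sgWDR77-2. That was 10%, 55%, 30% and 10% of the list, beside the shares of all genes above. The fibronectin receptor chain ITGA5 rose with sgPRMT5-1 (0.62, 0.0010) and sgPRMT5-2 (1.28, 3.8e-09), and the laminin receptor BCAM fell with sgPRMT5-1 (-0.61, 0.0042), sgPRMT5-2 (-1.52, 9.6e-09) and sgWDR77-2 (-0.62, 0.0025).

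Of 27 tested genes of collagen biosynthesis and cross-linking, 2 were called with sgPRMT5-1, both higher (9 at an unadjusted p under 0.05), 5 higher and 7 lower with sgPRMT5-2, 2 and 4 with sgWDR77-1, and 2 and 3 with sgWDR77-2. That was 7.41%, 44.4%, 22.2% and 18.5% of the list, beside 2.87%, 31.0%, 9.47% and 4.78% of all genes. PXDN, the peroxidase that cross-links type IV collagen, was at 43.5, 46.7 and 56.6 CPM in sgNeg, 66.8, 50.9 and 56.8 with sgPRMT5-1, and 80.5, 78.0 and 81.2 with sgPRMT5-2. It was at 20.0, 27.0 and 23.5 with sgWDR77-1 and 24.6, 23.8 and 24.1 with sgWDR77-2. The WDR77 guide libraries lay below all others and those of sgPRMT5-2 above them. PXDN rose with sgPRMT5-2 (0.72, adjusted p = 9.7e-05) and fell with sgWDR77-1 (-1.05, 5.3e-05) and sgWDR77-2 (-1.0, 9.3e-05). P3H2, a prolyl hydroxylase of basement membrane collagens, was at 57.4, 56.9 and 58.8 CPM in sgNeg and above that in every guide library. It rose with sgPRMT5-1 (1.23, 2.7e-06), sgPRMT5-2 (1.98, 6.5e-11), sgWDR77-1 (0.76, 3.8e-04) and sgWDR77-2 (1.03, 8.0e-06).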

How the data were processed

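The authors sequenced single-end reads, used STAR for alignment to hg38 and htseq-count for counting, and the authors' own tests used DESeq2. The deposited counts per gene were used here, 15 files of 60649 genes each. Lines for reads without a feature (2.75 to 7.16%), not unique (9.49 to 13.1%) or ambiguous (7.09 to 7.93%) stayed out of library sizes and tests.

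Genes with a mean of at least 3 reads were scaled with TMM factors and tested with limma voom (limma 3.58.1, R 4.3.3), with 5 conditions in 1 fit. Called means a Benjamini-Hochberg adjusted p below 0.05 over 14077 genes. Every p is from limma voom unless another tool is named. CPM used TMM-scaled totals, and TPM used GENCODE exon lengths. Figures used Python 3.11.15 and matplotlib 3.10.9. Members described by name were chosen by role, level and size of change. Alternatives changed the scaling, filter, libraries fitted, variance model or 1 library at a time. The scripts recovered known differences in simulated data with the same spread for every gene. These were planted only in genes with more reads than NID1 (mean of 13.7), MXRA5 (19.7), SPP1 (23.2), SPARC (25.3) or TNC (25.8). The members and lists were chosen with earlier results of these data known.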

Additional observations from a re-analysis of the deposited data

Results flagged for a closer look

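A result was picked for a closer look when both guides of 1 target lay on 1 side of sgNeg, both guides of the other target lay on the opposite side, and the difference between targets passed the limma voom test. For 4 members this was so. The spread in that test came from replicate libraries, not from guides of the same target. The sides are signs of estimates, and some estimates were smaller than their SE. ECM1 was at -0.06 ± 0.35 with sgWDR77-1 and -0.04 ± 0.35 with sgWDR77-2, and COL17A1 at 0.01 ± 0.08 with sgPRMT5-2. The log2 difference, PRMT5 guides minus WDR77 guides, was 0.22 for COL17A1, 0.86 for LAMB3, 0.88 for ECM1 and -0.73 for CCN2. For COL17A1 none of the 4 comparisons with sgNeg passed on its own, though sgWDR77-2 did in 5 alternatives. What sets the targets apart was not tested.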

How the results depend on the processing

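The direction of every called member was kept in all 23 alternatives: 15 left out 1 library, and 8 changed the scaling, filter, replicate block, libraries fitted or variance model. Of the calls, those kept throughout were 3 of 13 (sgPRMT5-1), 24 of 26 (sgPRMT5-2), 5 of 9 (sgWDR77-1), 11 of 18 (sgWDR77-2), 5 of 14 (sgPRMT5-2 against sgPRMT5-1), 0 of 6 (sgWDR77-2 against sgWDR77-1) and 16 of 20 (PRMT5 against WDR77 guides). Without 1 library the counts were 4 to 22, 24 to 28, 7 to 11, 11 to 23, 5 to 17, 1 to 10 and 17 to 26 in the same order. Over all genes those runs called 114 to 860 with sgPRMT5-1 and 3092 to 5283 with sgPRMT5-2, beside 404 and 4361 with all 15 libraries. Fitting the compared groups alone gave 17, 31, 5, 18, 18, 0 (16 at an unadjusted p under 0.05) and 20. Over all genes these fits called 514 with sgPRMT5-1, 5656 with sgPRMT5-2 and 367 with sgWDR77-1, beside 404, 4361 and 1333 in the main fit. A replicate block called 343, 4234 and 1191 of all genes with the same guides. With the replicate block the counts were 12, 25, 9, 17, 15, 5 and 20, and the block ended 5 calls: NID1 with sgPRMT5-1 (adjusted p = 0.075), COL1A1 with sgPRMT5-2, FBLN1 with sgWDR77-2 (0.056), COL6A2 between the PRMT5 guides and THBS1 between the WDR77 guides. Replicate numbers did not pair samples: 5 of 15 libraries correlated best with their own number. The edgeR and DESeq2 alternatives were not run. RNA was measured in 1 cell line at 1 time, and secreted protein was not measured.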

Other observations

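YAP and TEAD are regulators that respond to matrix stiffness and act on CCN1 and CCN2. Of 18 other targets tested, 4 were higher and 1 lower with sgPRMT5-1, 11 and 4 with sgPRMT5-2, 5 and 4 with sgWDR77-1, and 4 and 2 with sgWDR77-2. That was 27.8%, 83.3%, 50% and 33.3% of the list, beside 2.87%, 31.0%, 9.47% and 4.78% of all genes. Their median log2 fold changes were 0.18, 0.55, 0.20 and -0.04, beside 0.02, 0.01, -0.01 and 0.02 over all genes. NT5E rose with sgPRMT5-2 (log2 fold change 2.09, adjusted p = 3.2e-11). Of 17 tested genes of the TGF-beta response, 1 was called with sgPRMT5-1, as higher (3 at an unadjusted p under 0.05), 2 higher and 2 lower with sgPRMT5-2, 1 and 2 with sgWDR77-1, and 2 and 1 with sgWDR77-2. That was 5.88%, 23.5%, 17.6% and 17.6% of the list, so below the share of all genes with sgPRMT5-2. ID1 fell with sgPRMT5-2 (-1.73, 2.3e-10).

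The basal keratin KRT5 was lower with each guide (-1.27, -3.53, -4.02 and -2.82), as was the desmosomal cadherin DSG3 (-0.49, -0.87, -0.98 and -0.66), and all 8 passed the test. Of the 9 squamous markers tested, which include both, 1, 2, 1 and 3 were called higher and 2, 2, 2 and 2 lower, or 33.3%, 44.4%, 33.3% and 55.6% of the list, beside 2.87%, 31.0%, 9.47% and 4.78% of all genes. KRT17 rose with sgWDR77-2 (0.83, adjusted p = 2.6e-06). These comparisons share the sgNeg libraries. The endothelial marker CDH5 rose with sgWDR77-1 (0.80, adjusted p = 0.0032), where VWF, the other tested marker of its list, did not pass (-0.46). VWF fell with sgPRMT5-2 (-2.28, 0.0039).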
